A study of Rattus norvegicus with 9 samples.

Results

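The genes described here are 7 protein-coding genes that TGF-β induces or that encode matricellular and matrix proteins, namely Postn, Tgfbi, Fn1, Ccn2, Tnc, Smad7 and Skil. They were taken by gene symbol from a count table of 35360 genes, and all 7 were among the 15460 genes that passed the filter on low counts. The table came from poly-A RNA from rat femoral fractures, sampled at the site the labels call the middle end, in 9 libraries. The 3 groups of 3 libraries came from fractures given plain gel (Gel), gel carrying a bisphosphonate named ALN in the labels (ALN gel), or gel carrying a metal-organic framework of magnesium and ALN (Mg-ALN gel). All groups therefore carried the gel and a fracture, and neither an untreated fracture nor intact bone was analysed here. Strain, sex, age, dose and time after fracture were not given in the sources used here. The study concerns fibrosis after bisphosphonate and the TGF-β pathway, of which these genes are readouts.

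TGF-β ligands bind receptor kinases that phosphorylate SMAD2 and SMAD3, which enter the nucleus with SMAD4 and switch on target genes. Matricellular proteins are secreted into the matrix and alter how cells attach to it, migrate and respond to growth factors, and they are produced strongly in healing bone and in scars. The pathway also induces its own brakes. Smad7 encodes an inhibitory SMAD that blocks the receptor, and Skil encodes SnoN, a nuclear co-repressor of the SMADs.

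Promoter windows of 300 bases, 250 before and 50 after the annotated start, were available from RefSeq (build GRCr8) for 6 of the 7 genes. The letters CAGAC, a SMAD-binding element searched on both strands, were in 4 of the 6 windows and in 50.1% of 33469 rat promoters of the same length. The letters GGAATG, the core bound by TEAD factors, were searched on both strands and lay 3 times in the Ccn2 window and in none of the other 5, against 14.2% of all promoters. TATAAA on the coding strand was in 3 of the 6 windows and in 8.8% of all promoters. The SMAD palindrome GTCTAGAC (0.197% of all promoters) and the AP-1 site TGANTCA (7.33%) were in none of the 6 windows (0), both searched on both strands. A match is a run of letters and not evidence of binding. The windows of 4 genes are shown because the results turn on these genes, Postn, Tgfbi and Smad7 for their separation of Mg-ALN gel from ALN gel and Ccn2 for its TEAD matches. Matches to any of these motifs, or to the reverse complement where both strands were searched, are in capitals.
Ccn2: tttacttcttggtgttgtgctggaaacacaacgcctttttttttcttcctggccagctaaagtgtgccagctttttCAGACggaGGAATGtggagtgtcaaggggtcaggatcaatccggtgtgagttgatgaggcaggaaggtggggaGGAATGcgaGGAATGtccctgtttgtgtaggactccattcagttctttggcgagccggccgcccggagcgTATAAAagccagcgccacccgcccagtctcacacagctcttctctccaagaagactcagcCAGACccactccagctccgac
Postn: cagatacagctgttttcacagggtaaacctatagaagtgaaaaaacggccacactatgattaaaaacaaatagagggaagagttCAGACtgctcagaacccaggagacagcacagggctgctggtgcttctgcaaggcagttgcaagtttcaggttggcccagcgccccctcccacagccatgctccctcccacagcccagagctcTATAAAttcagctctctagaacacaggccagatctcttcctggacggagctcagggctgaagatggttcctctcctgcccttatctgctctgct
Tgfbi: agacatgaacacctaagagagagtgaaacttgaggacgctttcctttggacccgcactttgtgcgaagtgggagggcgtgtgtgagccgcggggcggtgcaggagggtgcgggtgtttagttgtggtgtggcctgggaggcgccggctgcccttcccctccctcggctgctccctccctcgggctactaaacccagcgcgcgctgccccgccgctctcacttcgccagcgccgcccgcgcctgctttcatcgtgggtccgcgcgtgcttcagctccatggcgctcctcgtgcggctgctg
Smad7: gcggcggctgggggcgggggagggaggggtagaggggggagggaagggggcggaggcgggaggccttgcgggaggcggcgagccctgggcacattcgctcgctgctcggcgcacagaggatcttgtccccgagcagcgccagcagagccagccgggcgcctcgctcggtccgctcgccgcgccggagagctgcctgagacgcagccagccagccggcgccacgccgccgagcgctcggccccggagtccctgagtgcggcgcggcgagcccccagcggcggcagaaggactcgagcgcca
The Ccn2 window (chr1:22624565-22624864, minus strand) holds 2 SMAD, 3 TEAD and 1 TATA match, and the Postn window (chr2:140677811-140678110, plus strand) holds 1 SMAD and 1 TATA match. The Tgfbi window (chr17:7990064-7990363, minus strand) and the Smad7 window (chr18:71263258-71263557, plus strand) hold none of these letters. They are richer in G and C, at 66.7% and 77.7% of bases, than those of Ccn2 and Postn, at 54.0% and 52.0%.

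The libraries held 13388689 to 18763270 counts, and replicates varied widely, the biological coefficient of variation common to all genes being 51.4%. The labels do not say whether replicates were separate animals, so p-values measure only the spread between these samples. In bulk tissue, fewer cells of a type and less RNA per cell cannot be told apart. The share of counts from mitochondrially encoded genes ranged from 4.16% to 39.5% and was highest in ALN gel library 1, followed by library 3 of Mg-ALN gel (31.6%). Osteoblast and fibroblast markers were expressed in every library and none of the 10 and 9 markers matched was at 0. Skeletal muscle markers, 9 of which were found, summed to 84.8 to 10705 CPM in Gel, 72.7 to 2365 CPM in ALN gel and 9.27 to 256 CPM in Mg-ALN gel, where up to 3 of them were at 0.

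Per kilobase of transcript, on the FPKM scale that the authors deposited, periostin (Postn) was the most abundant of the 7 genes, with a median of 739 FPKM over the 9 libraries, and a rank between 33 and 550 among the protein-coding genes tested in each library. Fn1 had a median of 426 FPKM, Tgfbi 281 FPKM, Ccn2 125 FPKM and Tnc 103 FPKM. The intracellular brakes were far lower, at 9.91 FPKM for Skil and 8.23 FPKM for Smad7. Neighbours in this order overlapped in most cases. Postn was above Fn1 in 7 of 9 libraries, Fn1 above Tgfbi in 8 of 9, Tgfbi above Ccn2 in 5 of 9, Ccn2 above Tnc in 5 of 9, and Skil above Smad7 in 6 of 9, while Tnc was above Skil in 9 of 9.

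**Figure D1:**
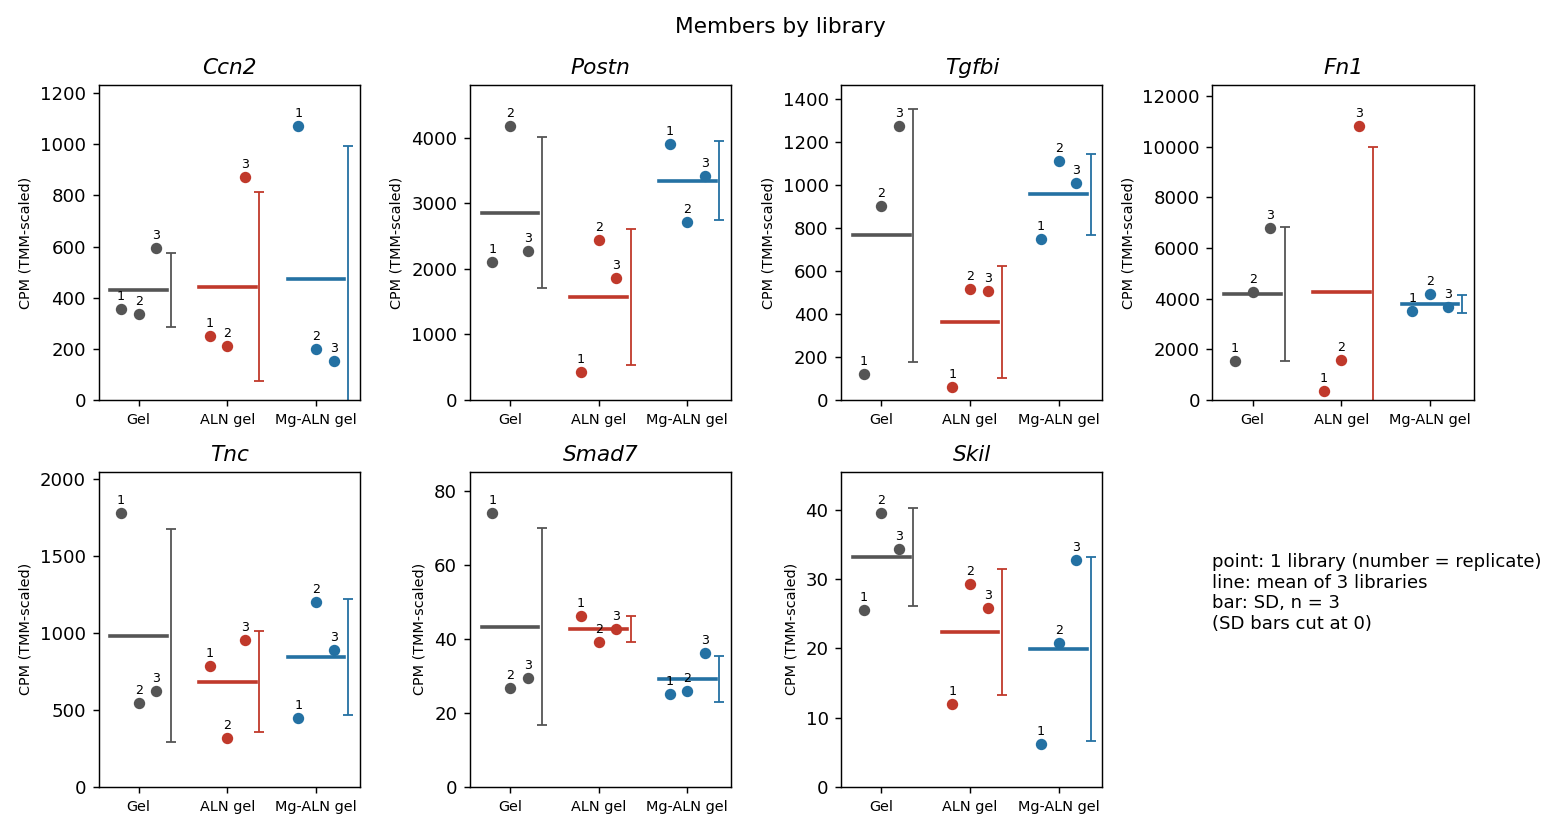
Normalised read count (CPM, vertical axis from 0) of the 7 genes in each of the 9 libraries, with the replicate number beside each point, a line for the mean of 3 libraries and a bar for the SD. Postn and Tgfbi were higher, and Smad7 lower, in every Mg-ALN gel library than in every ALN gel library, while in Ccn2 and Fn1 single libraries (Mg-ALN gel library 1 at 1071 CPM and ALN gel library 3 at 10810 CPM) stood above all others.

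Postn (ENSRNOG00000012660, chromosome 2, 143656793 to 143688087, in the coordinates of the deposited table) encodes periostin, a fasciclin-domain protein of periosteum and callus that binds integrins and collagen. Its values were 2110, 4175 and 2271 CPM in the Gel libraries 1 to 3, 423, 2435 and 1866 CPM in ALN gel, and 3903, 2713 and 3417 CPM in Mg-ALN gel. Each Mg-ALN gel library lay above each ALN gel library, although the lowest of the former (2713 CPM) was close to the highest of the latter (2435 CPM). The Gel libraries overlapped both other groups. Group means were 2852 ± 1149, 1575 ± 1037 and 3344 ± 599 CPM (SD, n = 3 each). The log2 fold change in Mg-ALN gel relative to ALN gel was 1.09 (SE 0.59, 95% interval −0.25 to 2.42), which did not pass in edgeR's quasi-likelihood test (adjusted p = 0.606). It was 0.63 without ALN gel library 1, where Postn was lowest and the mitochondrial share highest, and 1.25 when the mitochondrial share was added to the model. ALN gel was below Gel in 3 of 3 pairs of same-numbered libraries. This log2 fold change was −0.86 (SE 0.59, edgeR adjusted p = 0.753) without pairing. It was −1.12 (SE 0.45, adjusted p = 0.355) in an edgeR fit of those 6 libraries with the number as a block. That fit was added after the data were seen, and the pairing was read from these same data. Unpaired, the log2 fold change was −0.53 without Gel library 2, −1.41 with library 2 of ALN gel left out and −0.41 with library 1 of ALN gel left out.

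Tgfbi (ENSRNOG00000012216, chromosome 17, 8400146 to 8429338) encodes a paralogous fasciclin-domain matrix protein named for its induction by TGF-β. It had 123, 905 and 1276 CPM in the Gel libraries, 63.0, 517 and 508 CPM in ALN gel, and 748, 1113 and 1013 CPM in Mg-ALN gel. Again each Mg-ALN gel library lay above each ALN gel library, and the Gel libraries spanned nearly the whole range of the data. The 20.3-fold distance between its highest and lowest library was among the widest of the 7 genes. The log2 fold change was 1.40 (SE 0.87, 95% interval −0.57 to 3.37) in Mg-ALN gel relative to ALN gel and −1.08 (SE 0.87) in ALN gel relative to Gel, with edgeR adjusted p = 0.640 and 0.796. Without ALN gel library 1 the former was 0.90. The latter was −0.58 without ALN gel library 1, −0.59 without Gel library 3 and −0.35 with the mitochondrial share in the model. Tgfbi was lower in ALN gel in 3 of 3 same-numbered pairs. The blocked fit of the 6 libraries, added after the data were seen, gave −1.04 (SE 0.19, edgeR adjusted p = 0.173). Without Gel library 1, the other library in which Tgfbi was low, the log2 fold change of Mg-ALN gel relative to Gel went from 0.32 to −0.19.

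Fn1 (ENSRNOG00000014288, chromosome 9, 78900103 to 78969078) encodes fibronectin, the adhesive glycoprotein that forms the provisional matrix of a wound. An unnamed gene that overlaps it in the table (AABR07068042.1) had at most 6 counts in any library. Fn1 had 1526, 4278 and 6807 CPM in the Gel libraries, 352, 1585 and 10810 CPM in ALN gel, and 3505, 4179 and 3675 CPM in Mg-ALN gel. The ALN gel group thus held both the lowest and the highest of the 9 values, 30.7-fold apart, and the Mg-ALN gel libraries lay within 1.19-fold of each other. The means were nearly equal, at 4204 ± 2641, 4249 ± 5715 and 3786 ± 350 CPM (SD, n = 3 each). The log2 fold change of 0.02 (SE 1.01) in ALN gel relative to Gel was −2.18 without ALN gel library 3, and that of −0.17 (SE 1.01) in Mg-ALN gel relative to ALN gel was 1.98 without it. The former also turned negative without Gel library 1 (−0.38), Gel library 2 or Mg-ALN gel library 2, and in Mg-ALN gel relative to Gel the value was 0.34 without Gel library 3. The edgeR adjusted p was 0.969 or higher in the first pair of comparisons and 0.967 in Mg-ALN gel relative to Gel (log2 fold change −0.15, SE 1.01).

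Ccn2 (ENSRNOG00000015036, chromosome 1, 21851660 to 21854773) encodes connective tissue growth factor, a matricellular protein that is a target of both SMADs and the YAP and TEAD factors. Its values were 358, 337 and 595 CPM in the Gel libraries, 252, 210 and 870 CPM in ALN gel, and 1071, 199 and 151 CPM in Mg-ALN gel. In both ALN-containing groups a single library was high and the other two lay below every Gel library, so the means, 430 ± 144, 444 ± 370 and 474 ± 518 CPM (SD, n = 3 each), do not describe a typical library. All log2 fold changes were between 0.05 and 0.14 (SE 0.79 each) and all 3 groups overlapped. Without ALN gel library 3 the log2 fold change of ALN gel relative to Gel was −0.96, and without Mg-ALN gel library 1 that of Mg-ALN gel relative to Gel was −1.30, neither past the threshold (edgeR adjusted p = 0.705 and 0.789). The first also turned negative without Gel library 1, Gel library 2 or Mg-ALN gel library 2, and the second without Gel library 2. The value in Mg-ALN gel relative to ALN gel was −1.34 without Mg-ALN gel library 1 and also turned without ALN gel library 1 (−0.19) or 2 (−0.18).

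Tnc (ENSRNOG00000058645, chromosome 5, 79789671 to 79874671) encodes tenascin-C, a large hexameric matrix protein that appears at sites of repair and weakens cell adhesion to fibronectin. It had 1779, 545 and 621 CPM in the Gel libraries, 782, 316 and 952 CPM in ALN gel, and 449, 1199 and 889 CPM in Mg-ALN gel. The groups overlapped throughout, and Gel library 1 was highest. Relative to Gel, its log2 fold change in ALN gel was −0.52 (SE 0.59), and it was −0.21 (SE 0.59) in Mg-ALN gel. Without Gel library 1 these values turned to 0.23 and 0.54, the second also turned without Mg-ALN gel library 1, and no value passed (edgeR adjusted p = 0.873 and 0.918 with all libraries).

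Smad7 (ENSRNOG00000018359, chromosome 18, 71395830 to 71424157) encodes the inhibitory SMAD. With 318 to 1042 counts in every library it had 74.2, 26.6 and 29.3 CPM in the Gel libraries, 46.2, 39.3 and 42.7 CPM in ALN gel, and 25.1, 26.0 and 36.3 CPM in Mg-ALN gel. Each Mg-ALN gel library lay below each ALN gel library, by a narrow gap between 36.3 and 39.3 CPM, and Gel held values on both sides. The ALN gel libraries agreed within 1.18-fold. The log2 fold change in Mg-ALN gel relative to ALN gel was −0.55 (SE 0.38, 95% interval −1.41 to 0.31, edgeR adjusted p = 0.673). In ALN gel relative to Gel it was −0.02 (SE 0.38) with all libraries and 0.61 without Gel library 1, which was highest. Without that library the value in Mg-ALN gel relative to Gel went from −0.57 to 0.06. Its biological coefficient of variation, 36.02%, was the lowest of the 7 genes.

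Skil (ENSRNOG00000009899, chromosome 2, 115866701 to 115891097) encodes the co-repressor SnoN, which TGF-β first degrades and then induces. It had 25.6, 39.6 and 34.4 CPM in the Gel libraries, 12.02, 29.3 and 25.9 CPM in ALN gel, and 6.23, 20.7 and 32.8 CPM in Mg-ALN gel. The lowest value of each group was in library 1, and all groups overlapped. Relative to Gel, Skil had a log2 fold change of −0.57 (SE 0.54) in ALN gel, and Mg-ALN gel had −0.74 (SE 0.54), with edgeR adjusted p = 0.843 and 0.658. In Mg-ALN gel relative to ALN gel it was −0.17 (SE 0.54) and turned to 0.26 without Mg-ALN gel library 1, at 79 counts the lowest library, and to 0.12 without ALN gel library 2. With 1 library left out, the value in ALN gel relative to Gel ran from −0.90 (ALN gel library 2) to −0.27 (ALN gel library 1). That of Mg-ALN gel relative to Gel ran from −1.30 (Mg-ALN gel library 3) to −0.31 (Mg-ALN gel library 1). Skil was lower in ALN gel than in Gel in 3 of 3 same-numbered pairs. The blocked fit of the 6 libraries, added after the data were seen, gave −0.64 (SE 0.21, edgeR adjusted p = 0.285).

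**Figure D2:**
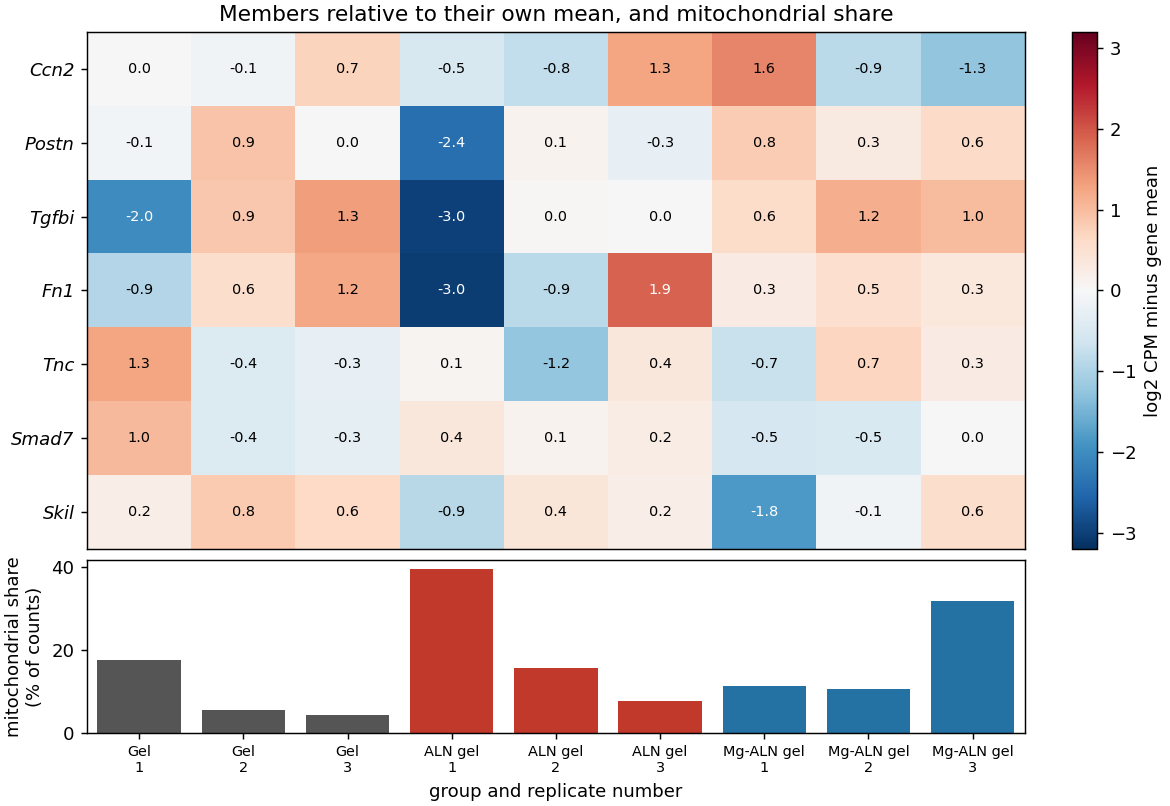
Log2 CPM of each gene in each library minus the gene's mean over the 9 libraries (top, colour and number), above the mitochondrial share of counts of the same libraries (bottom, bars from 0). ALN gel library 1, with 39.5% mitochondrial counts, was lowest for Postn, Tgfbi and Fn1 but not for Tnc, Smad7, Skil or Ccn2. Mg-ALN gel library 3, with 31.6%, was above the gene's mean for Postn (0.61), Tgfbi (1.02), Fn1 (0.34), Skil (0.56), Tnc (0.26) and Smad7 (0.01). It was the lowest of the 9 libraries for Ccn2 (−1.26).

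Across the 7 genes no library was low or high throughout. ALN gel library 1 held the lowest value of 3 genes (Postn, Tgfbi and Fn1) and Mg-ALN gel library 1 that of Smad7 and Skil, although it also held the highest Ccn2. The 7 genes together took 0.148% of the counts in ALN gel library 1 and 1.71% in ALN gel library 3, the lowest and the highest of the 9 libraries, both in the same group. Fn1 alone took 1.23% in ALN gel library 3. In Gel the share of the 7 genes was 0.602%, 1.14% and 1.39%, and in Mg-ALN gel 0.896%, 1.05% and 0.773%. These shares are of all counts, mitochondrial ones included. In CPM the 7 genes summed to 1930 in ALN gel library 1 and 15074 in ALN gel library 3, and to 9707, 9449 and 9215 in Mg-ALN gel.

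The comparison of ALN gel with Gel asks how the bisphosphonate alone changed these readouts. The log2 fold changes of the 7 genes ranged from −1.08 (Tgfbi) to 0.05 (Ccn2), with 5 negative, 2 positive and a median of −0.52, where the median of all tested genes was 0.00. None passed in edgeR (0 of 7, against 0% of 15460 genes), and 0 of 7 had an unadjusted p under 0.05, against 8.2% of all genes. DESeq2 gave an adjusted p for 6 of the 7, all but Ccn2, and called 0 of them, against 0.959% of all genes with one. Limma-voom with quality weights called 0 of 7, against 1.7% of all genes. In 0 of 7 genes were the groups free of overlap, against 16.1% of all genes (11.1% higher and 5.03% lower in ALN gel). By same-numbered pairs, ALN gel was lower in 3 of 3 for Postn, Tgfbi and Skil. It was lower in 2 of 3 for Ccn2, Fn1 and Tnc, and in 1 of 3 for Smad7. The share of all genes lower in 3 of 3 pairs was not computed. For Tgfbi the unpaired 95% interval ran from 0.122-fold to 1.83-fold and for Fn1 from 0.207-fold to 4.93-fold, whereas for Smad7 it ran from 0.545-fold to 1.78-fold.

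**Figure D3:**
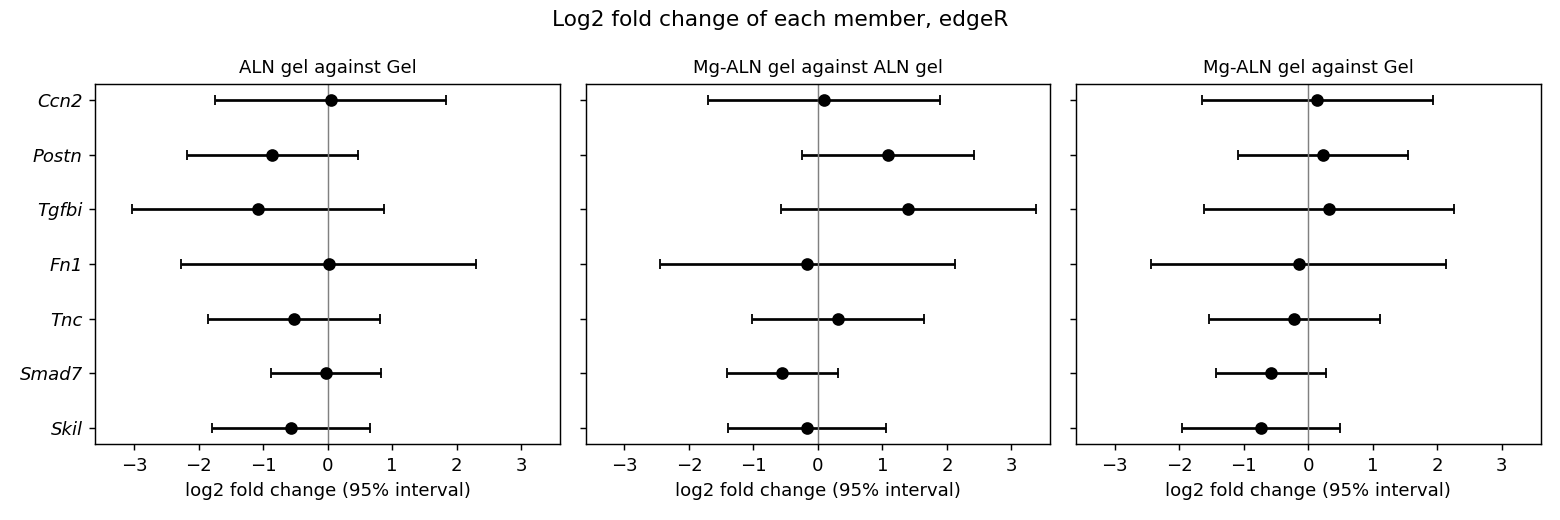
Log2 fold change (horizontal axis) of the 7 genes in the 3 comparisons, with points for the edgeR estimate and bars for its 95% interval, from 1 fit over all 9 libraries. Every interval includes 0, and those of Postn and Tgfbi in Mg-ALN gel relative to ALN gel reach from −0.25 to 2.42 and from −0.57 to 3.37.

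The comparison of Mg-ALN gel with ALN gel asks what the magnesium framework changed relative to the bisphosphonate gel. Postn and Tgfbi had the highest log2 fold changes (1.09 and 1.40) and Smad7 the lowest (−0.55), and the median of the 7 genes was 0.09, against −0.04 over all genes. Of the 7 genes 0 passed in edgeR (against 0% of all genes), 0 had an unadjusted p under 0.05 (against 9.19%), and DESeq2 called 0 of the 6 with an adjusted p (against 1.22%, Ccn2 again having none). Limma-voom with quality weights called 0 of 7, against 0.0129% of all genes. For 3 of 7 genes the groups were free of overlap, against 16.5% of all genes. Postn and Tgfbi were higher in Mg-ALN gel (2 of 7, against 6.76% of all genes) and Smad7 was lower (1 of 7, against 9.77%). In the comparison of Mg-ALN gel with Gel the median was −0.15 (all genes −0.03), with 3 positive and 4 negative values between −0.74 (Skil) and 0.32 (Tgfbi). DESeq2 called 0 of the 6 genes other than Ccn2 there (against 0.332% of genes with an adjusted p) and limma-voom with quality weights 0 of 7 (against 0%). There too 0 of 7 passed in edgeR (against 0%), 0 had an unadjusted p under 0.05 (against 9.31%) and 0 were free of overlap (against 18.3% of all genes, 9.76% higher and 8.56% lower in Mg-ALN gel). A joint edgeR test of differences among the 3 groups gave adjusted p-values between 0.653 (Postn) and 0.994 (Ccn2), and 9.29% of all genes had an unadjusted p under 0.05 in it. The comparisons share libraries, so the opposite signs of Postn and Tgfbi in the first pair of comparisons rest on the same ALN gel libraries.

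Marker lists of other cell types, immediate early genes and mitochondrially encoded genes were followed beside these values, and no gene of them passed. In ALN gel relative to Gel, log2 fold changes were positive in 11 of 11 osteoclast markers (median 1.43), 8 of 8 erythroid markers (1.02) and 13 of 13 mitochondrially encoded genes (1.55). They were negative in 13 of 13 immediate early genes (median −0.92), 9 of 9 skeletal muscle markers (−1.05), 8 of 10 osteoblast markers (−0.69), 8 of 9 chondrocyte markers (−0.31), 8 of 9 endothelial markers (−0.43) and 7 of 9 fibroblast markers (−0.52). Neutrophil and macrophage markers were negative in 5 of 9 each (medians −0.25 and −0.15). The muscle, osteoblast and chondrocyte lists were each highest in 1 Gel library. In mean centred log2 CPM, muscle markers had −1.36, −1.20 and 5.19 in Gel libraries 1 to 3. Those of ALN gel were 3.29, −1.87 and 2.50. Osteoblast markers had 1.96 in Gel library 1, while Gel libraries 2 and 3 lay below every ALN gel library. Chondrocyte markers were highest in Gel library 3, while Gel library 2 lay below every ALN gel library. In Mg-ALN gel relative to ALN gel, skeletal muscle markers were negative in 9 of 9 (median −3.14), chondrocyte and osteoblast markers in 8 of 9 and 8 of 10 (−1.09 and −0.65), erythroid markers in 8 of 8 (−0.42) and mitochondrially encoded genes in 13 of 13 (−0.46). Neutrophil markers were positive in 7 of 9 (median 2.10) and macrophage markers in 5 of 9 (0.04). In the same comparison fibroblast markers had positive log2 fold changes in 8 of 9 genes tested (median 1.23, 0 passed), and their summed level was 1539 to 3805 CPM in ALN gel, 4366 to 6895 CPM in Mg-ALN gel and 2921 to 5186 CPM in Gel, with no marker at 0. Endothelial markers were positive in 9 of 9 (median 0.70, 0 passed), with 434 to 1194 CPM in ALN gel, 970 to 1869 CPM in Mg-ALN gel and 796 to 1139 CPM in Gel. Immediate early genes were positive in 13 of 13 (median 1.06, 0 passed), with 579 to 1390 CPM in ALN gel, 1892 to 2483 CPM in Mg-ALN gel and 879 to 2759 CPM in Gel. Osteoclast markers were negative in 11 of 11 (median −1.46, 0 passed), with 21930 to 31816 CPM in ALN gel, 3926 to 12602 CPM in Mg-ALN gel and 2389 to 18502 CPM in Gel. Such sums are carried by the most abundant markers. Over the 9 libraries Lum had 461879 counts, against 51552 for Thy1, the next fibroblast marker. Ctsk, Acp5 and Mmp9 had 1002914, 481834 and 425246, against 52009 for Tcirg1, the next osteoclast marker. The part of these lists in the values of the 7 genes was not tested. Leaving out both libraries of highest mitochondrial share (ALN gel library 1, Mg-ALN gel library 3), a choice made after seeing the data, the log2 fold changes in Mg-ALN gel relative to ALN gel were 0.65 for Postn, 0.89 for Tgfbi and −0.65 for Smad7.

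How the genes varied together was examined over the 9 libraries on the log2 CPM scale, for all 21 pairs. The 3 values of Pearson's r farthest from 0 all involved Tgfbi. Pearson's r was 0.81 between Tgfbi and Fn1 (Spearman's rho 0.60, exact permutation p = 0.00965 and 0.0968), 0.80 between Postn and Tgfbi (rho 0.58, p = 0.0131 and 0.108), and −0.78 between Tgfbi and Smad7 (rho −0.73, p = 0.0139 and 0.0311). These were the 3 pairs with an unadjusted p under 0.05 for r, and 0 of 21 passed after Benjamini-Hochberg adjustment, where each of the 3 had an adjusted p of 0.0974 for r. For rho the adjusted p was 0.567, 0.567 and 0.327 in the same order. The rho farthest from 0 was that of Postn and Smad7 (−0.80, exact permutation p = 0.0138, adjusted p = 0.290), whose r was −0.48 (exact permutation p = 0.171, adjusted p = 0.597) and −0.58 without Gel library 2 and ALN gel library 1. The 2 libraries farthest from the median of the first-named gene of a pair were then left out, a choice that depends on the order of the genes. For Fn1 the farthest were ALN gel libraries 1 and 3. On this rule r was 0.15 for Tgfbi and Fn1 (without Gel library 1 and ALN gel library 1), 0.44 for Postn and Tgfbi (without Gel library 2 and ALN gel library 1), and −0.64 for Tgfbi and Smad7 (without Gel library 1 and ALN gel library 1). Leaving out the most extreme libraries narrows the range, which can itself lower r, so these values cannot show what a relation rests on. Without ALN gel library 1 alone, a choice made after seeing the data, r was 0.55 for Tgfbi and Fn1, 0.46 for Postn and Tgfbi and −0.90 for Tgfbi and Smad7. Computed on deviations from the group means, r was 0.81, 0.73 and −0.72.

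Ccn2 was not close to any other gene of the set, with r between −0.40 (Skil) and 0.44 (Fn1). The Postn and Fn1 relation (r = 0.69, exact permutation p = 0.0705, adjusted p = 0.370, rho 0.22, p = 0.581) was −0.11 without ALN gel library 1. Tnc and Smad7, both highest in Gel library 1, had r = 0.52 (exact permutation p = 0.152, adjusted p = 0.597, rho 0.40, p = 0.291). The brakes Smad7 and Skil had r = 0.13 with each other (exact permutation p = 0.709, adjusted p = 0.857, rho −0.02, p = 0.982).

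**Figure D4:**
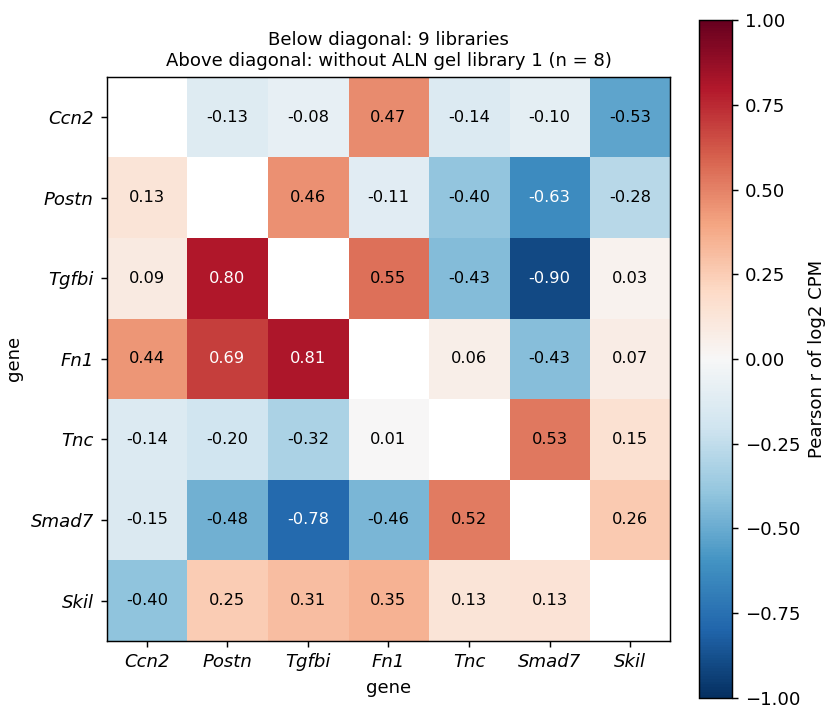
Pearson's r of log2 CPM between each pair of genes, over all 9 libraries below the diagonal and without ALN gel library 1 above it. The relation of Postn with Fn1 went from 0.69 to −0.11 and that of Tgfbi with Smad7 from −0.78 to −0.90.

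The ratio of Postn to Tgfbi within a library does not depend on scaling between libraries. Counts per kilobase of Postn were 14.2, 3.81 and 1.47 times those of Tgfbi in the Gel libraries 1 to 3, 5.55, 3.89 and 3.04 times in ALN gel, and 4.31, 2.02 and 2.79 times in Mg-ALN gel. Periostin was thus the more abundant of the paralogs in every library, and the spread was widest in Gel. The mean log2 ratio was 2.10 ± 1.64 in Gel and 2.01 ± 0.44 in ALN gel, with Mg-ALN gel at 1.53 ± 0.55 (SD, n = 3 each). It differed by −0.48 between Mg-ALN gel and ALN gel (two-sided exact permutation p = 0.4), by −0.09 between ALN gel and Gel (exact permutation p = 1) and by −0.57 between Mg-ALN gel and Gel (exact permutation p = 0.8), where 3 libraries against 3 cannot give a p under 0.1. Without Gel library 1 the last pair of differences turned to 0.77 and 0.29.

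**Figure D5:**
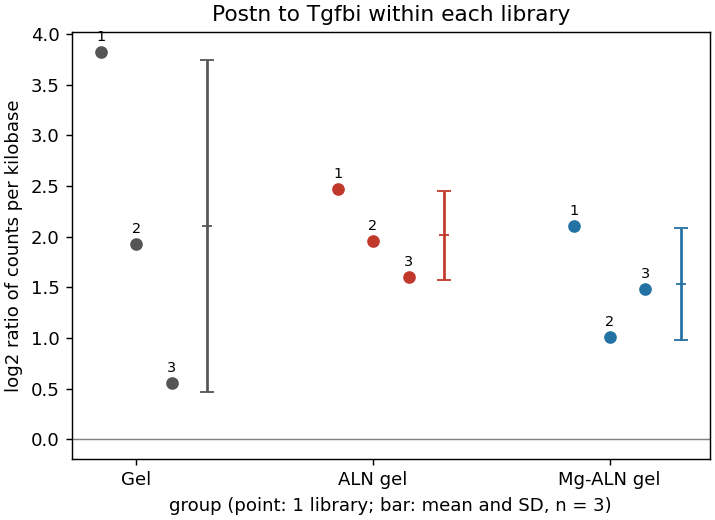
Log2 ratio of counts per kilobase of Postn to Tgfbi in each library (points with replicate numbers), with the mean and SD of each group of 3. The Gel libraries span 0.56 to 3.83, wider than the 2 other groups.

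For each gene the 3 protein-coding genes with the most similar log2 CPM over the 9 libraries were identified among 11468 genes with a mean of at least 2 CPM. As the highest of so many values, these r are a description. Tgfbi was closest to Glipr2 (r = 0.98), the chemokine gene Cxcl6 (0.98) and Tnfrsf8 (0.98), all lowest in ALN gel library 1. Postn was closest to Bcat1 (0.98), a branched-chain amino acid aminotransferase, Gnb5 (0.97) and the glycosyltransferase gene Galnt2 (0.96), and Fn1 to PCOLCE2 (0.98), an enhancer of procollagen processing, Cdon (0.97) and the laminin chain gene Lama2 (0.97). Ccn2 was closest to Nbl1 (0.96), a secreted BMP antagonist, the muscle calcium-binding protein gene Casq2 (0.94) and Cilp (0.94), a matrix protein of cartilage. Tnc was closest to Deaf1 (0.95), Alg8 (0.94) and Lzts2 (0.94), Smad7 to the folate carrier gene Slc19a1 (0.97), Keap1 (0.94) and Slc17a9 (0.94), and Skil to Rab3gap1 (0.99), Runx3 (0.99), a transcription factor that partners with SMADs, and Rundc1 (0.99).

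The rest of the pathway was described from lists chosen with earlier results of these data known, and no gene of any list passed in any comparison by edgeR. Of 20 other TGF-β response genes, 16 had negative log2 fold changes in ALN gel relative to Gel (median −0.77, 0 passed) and 15 positive ones in Mg-ALN gel relative to ALN gel (median 0.68, 0 passed). Within ALN gel the libraries stood apart, as the mean centred log2 CPM of this list was lowest of all 9 in library 1 (−1.61), with 39.5% mitochondrial counts, and highest of all 9 in library 3 (0.75). Among them, Col1a1, the main chain of type I collagen, averaged 61107 ± 31773 CPM over the Gel libraries and 20358 ± 9235 in ALN gel, with Mg-ALN gel at 30249 ± 3447 (SD, n = 3 each), and Col3a1, of type III collagen, 12273 ± 5272, 8583 ± 9086 and 16010 ± 3232 CPM. A list of pathway regulators other than Smad7 and Skil held mostly inhibitors, but not only these, as it included Rnf111 and Usp15. Its values were negative in 11 of 13 genes in ALN gel relative to Gel (median −0.26). In Mg-ALN gel relative to ALN gel 10 of 13 were negative (median −0.11), with 0 passed in either. Among them, Pmepa1, an inhibitor of receptor signalling, had values of −0.62 (SE 0.31) and 0.66 (SE 0.31) on the log2 scale, and Dcn, the TGF-β-binding proteoglycan decorin, had −0.40 (SE 0.64) and 0.89 (SE 0.64). Ligands, receptors and SMADs had medians of −0.38 and 0.03 over 12 genes (0 passed), with Tgfbr1, a receptor kinase, at 0.23 (SE 0.40) and −0.73 (SE 0.41) and Eng, the co-receptor endoglin, at −0.52 (SE 0.56) and 0.53 (SE 0.56).

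Other matricellular genes, of which 20 of 22 matched were tested, had 12 negative values in ALN gel relative to Gel (median −0.53, 0 passed) and 15 positive ones in Mg-ALN gel relative to ALN gel (median 0.58, 0 passed). Here too ALN gel library 1 was lowest (−1.74) and ALN gel library 3 highest (1.04) of the 9 libraries in mean centred log2 CPM. The lists are not separate, as this one shares Thbs1 and Comp with the other TGF-β response genes and Ccn1 with the YAP and TEAD targets. Sparc, the collagen-binding osteonectin, did not overlap between ALN gel and either other group, with 13359 ± 4453 CPM in Gel and 7254 ± 1755 in ALN gel, with Mg-ALN gel at 11524 ± 1678 (SD, n = 3 each, log2 fold changes −0.88, SE 0.44, and 0.67, SE 0.43). Spp1, the bone matrix protein osteopontin, was at 0.21 (SE 0.51) and −0.37 (SE 0.51) on the same scale. Targets of YAP and TEAD were negative in 14 of 14 genes in ALN gel relative to Gel (median −0.45, 0 passed) and positive in 11 of 14 in Mg-ALN gel relative to ALN gel (median 0.20, 0 passed). Their mean centred log2 CPM was −0.30, 0.24 and 0.99 in Gel libraries 1 to 3. In ALN gel it was −0.92, −0.47 and 0.54, so the groups overlapped. Ccn1, which encodes another CCN-family matricellular protein, had 224 ± 137, 109 ± 68.5 and 367 ± 141 CPM, and its log2 fold changes were −1.04 (SE 0.61) and 1.75 (SE 0.62). Those of Ccn2 were 0.05 and 0.09 (SE 0.79 each), and −0.96 and 1.07 without ALN gel library 3. Axl, a receptor tyrosine kinase, had −0.28 (SE 0.38) and 0.15 (SE 0.38). Integrin genes whose products bind the matricellular proteins had medians of −0.09 and −0.63 over 12 genes (0 passed), and Itgb1, the shared β chain, had −0.13 (SE 0.28) and 0.25 (SE 0.28), while Itga5, a chain of the fibronectin receptor, had −0.11 (SE 0.47) and 0.45 (SE 0.47).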

How the data were processed

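Poly-A RNA was sequenced by the authors from 9 rat fracture samples, and groups and replicate numbers were read from the sample titles. The authors deposited whole-number read counts per gene with no normalization, used for every test. They also deposited FPKM values, used only to order genes by level per length. Checked against the counts, 100% of the FPKM values of tested genes equalled the count over length times 1 constant per library within 0.1%, and that constant was 0.804 to 1.19 times the column total. Per the submitters' processing notes, the tools included featureCounts 1.5.0-p3, HISAT2 2.0.5 and fastp, beside StringTie 1.3.3b, with no role stated. No genome build is given in the sources used here. The library protocol mentions no marking of strand.

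Tests ran on the counts in edgeR 4.0.16 under R 4.3.3 (filterByExpr, TMM, quasi-likelihood test, Benjamini-Hochberg over 15460 genes, threshold 0.05), and with limma 3.58.1 and DESeq2 1.42.0 as alternatives. SE is the log2 fold change over the square root of F. CPM used TMM-scaled totals, with a prior count of 0.5 for log2 CPM. The test was tried on simulated counts. No pair of libraries agreed within sampling noise (chi-square over its degrees of freedom at least 72.3). Deviations from group means of same-numbered libraries correlated across genes at 0.341, 0.419 and 0.226 between Gel and ALN gel. Those of Mg-ALN gel correlated at −0.077, −0.045 and −0.199 with Gel and at 0.130, −0.120 and −0.127 with ALN gel. The numbers were treated as pairs between Gel and ALN gel on these correlations alone, so the blocked fits are no independent evidence of pairing. The mitochondrial share also fell from library 1 to 3 in both groups (17.5%, 5.40% and 4.16% in Gel, 39.5%, 15.6% and 7.61% in ALN gel). Whether that order gave the correlations was not tested. Named genes were all members, list genes that passed or else the 2 of highest mean CPM per pathway list (marker lists are given by counts and summed levels), and the 3 genes most like each member. Members and lists were chosen with earlier results of these data known. Of 223 list entries, 214 matched a gene.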

Additional observations from a re-analysis of the deposited data

How the results depend on the processing

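No member passed the threshold in any comparison under any alternative run (lowest adjusted p 0.173), DESeq2 giving none for Ccn2. Of 364 member fold changes under alternatives, 52 changed direction. Sizes moved as well, and Tgfbi in Mg-ALN gel relative to Gel went from 0.32 to 1.48 with the mitochondrial share as covariate and to 0.98 with the replicate block. With 1 library left out, log2 fold changes in ALN gel relative to Gel lay between −0.96 and 0.33 for Ccn2, −2.18 and 0.56 for Fn1, −0.88 and 0.23 for Tnc, and −0.32 and 0.61 for Smad7. In Mg-ALN gel relative to ALN gel they lay between −1.34 and 1.07 for Ccn2, −0.71 and 1.98 for Fn1, and −0.73 and 0.26 for Skil. In Mg-ALN gel relative to Gel they lay between −1.30 and 0.56 for Ccn2, −0.19 and 0.84 for Tgfbi, −0.55 and 0.34 for Fn1, −0.56 and 0.54 for Tnc, and −0.83 and 0.055 for Smad7.

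In ALN gel relative to Gel, values that turned were −0.037 (no filter), −0.15 (muscle score as covariate) and −0.54 (limma-voom) for Ccn2, −0.033 (RLE), −0.086 (no filter), −0.0043 (muscle score), −0.033 (DESeq2) and −1.26 (limma-voom) for Fn1, and 0.067 (muscle score) and 0.42 (limma-voom) for Smad7. In Mg-ALN gel relative to ALN gel they were −0.15 (mitochondrial share) and −0.54 (limma-voom) for Ccn2, and 0.79 (mitochondrial share), 0.46 (muscle score) and 0.99 (limma-voom) for Fn1. In Mg-ALN gel relative to Gel they were −1.08 (limma-voom) for Ccn2, −0.020 (muscle score) for Postn, 1.28 (mitochondrial share) and 0.46 (muscle score) for Fn1, and 0.55 (limma-voom) for Tnc. The causes were not tested.

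With the replicate block over all libraries, directions turned for Ccn2 (−0.094), Fn1 (−0.65) and Smad7 (0.076) in ALN gel relative to Gel, for Fn1 (1.01) in Mg-ALN gel relative to ALN gel, and for Ccn2 (−0.048) and Fn1 (0.36) in Mg-ALN gel relative to Gel. In a block fit of the 6 Gel and ALN gel libraries, added after seeing the data, Ccn2 had −0.22, Fn1 −0.998 and Smad7 0.14. The block changed no call.

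Over all genes, edgeR called 0 in each comparison, and 1 without ALN gel replicate 3 in ALN gel relative to Gel and among the 3 groups (0 to 1 over the libraries left out). DESeq2 called 133, 184, 51 and 247 genes in the 3 comparisons in the order above and among the 3 groups, and limma-voom with quality weights 263, 2, 0 and 28. The log2 ratio of Postn to Tgfbi differed by −0.87 to 0.77 between ALN gel and Gel and by −1.35 to 0.29 between Mg-ALN gel and Gel with 1 library left out. Without ALN gel library 1, a choice made after seeing the data, r turned to −0.13 for Ccn2 and Postn, −0.084 for Ccn2 and Tgfbi, −0.11 for Postn and Fn1 and −0.28 for Postn and Skil. The lowest count of these genes in any library was 79.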
